A study of Homo sapiens with 2 samples.

Results

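A set of 36 lysosomal genes, of 27685 in the deposited gene table, was followed here: 23 for proteins that reach the lysosome through the endoplasmic reticulum (6 membrane proteins, 7 proteases, 6 glycosidases and 4 proteins of lipid handling), 5 for the membrane sector V0 of the proton pump and 8 for its cytosolic sector V1. They were taken by gene symbol from a list whose rule names genes and uses no measured value, and all 36 were found. The list was nevertheless chosen with earlier results of these data known. All 36 passed the expression minimum, a mean of at least 1 CPM (counts scaled to library depth) over both libraries.

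Lysosomes break down proteins, glycans and lipids with acid hydrolases. The hydrolases and the membrane proteins of the organelle are made on the endoplasmic reticulum and sorted through the Golgi, many of them by their mannose 6-phosphate tag. The acid interior is kept by the vacuolar proton pump, in which the V1 sector, made and assembled in the cytosol, hydrolyses ATP and the V0 sector carries protons across the membrane. Many of these genes share an element in their promoters that is bound by TFEB, TFE3 and MITF.

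The cells were NCI-H838, an established human lung adenocarcinoma line, and RNA was taken 48 hours after transient, lipid-mediated transfection. One culture received pCDH-LINC00472, a plasmid with the full-length long noncoding RNA LINC00472, and the control culture received the empty pCDH vector. The comparison asks how the transcriptome differs with extra LINC00472. With only 1 library in each group there are no replicates and no p-values, and all intervals cover counting error alone.

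The libraries held 21093055 (LINC00472) and 54823706 (control) gene counts. The LINC00472 RNA itself had 5655 and 2563 counts, a log2 ratio of 2.23 (95% counting interval 2.16 to 2.30). Ratios are of counts scaled by trimmed means (TMM), LINC00472 over control, and a gene met the size rule when its ratio was 2-fold or more and its interval did not reach equality. The median log2 ratio was -0.19 over the 14012 genes at the minimum and -0.32 over the 12246 protein-coding ones, and values below are read against these. Of all calls, 40.6% were on the higher side with TMM, 57.9% with total-count scaling and 63.9% with upper quartile factors. Epithelial markers passed the minimum in 5 of 8 cases. The summed level of the 8 was 55.3 against 256 FPKM (fragments per length and depth), LINC00472 first, as in all pairs here. Most of it came from KRT8 and KRT18, which were lower (log2 ratios of -1.985 and -2.898). The other markers that passed did not meet the size rule, with log2 ratios of -0.19 (EPCAM), -0.098 (ELF3) and 0.466 (CDH1). Of the lung lineage markers, NKX2-1 and SFTPB were listed at 0 in both libraries and only NAPSA of 4 passed. Macrophage and leukocyte markers, whose cells are rich in lysosomes, passed in 1 of 10 cases (CD14, 7.77 FPKM against 2.75), with PTPRC at 0 and 0.14 FPKM and TYROBP at 0 in both, and a summed level of 8.24 against 4.08 FPKM. Fibroblast and endothelial markers passed in 4 of 8 cases and summed to 2.85 against 3.29 FPKM.

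The promoters of several secretory-route members, of 2 V0 subunits and of 1 V1 subunit hold the letters of the element bound by TFEB. This is why 7 stretches are shown. Each is the run of bases just before the annotated start, 5′ to 3′, with the letters TCACGTG (either strand) in capitals, from RefSeq on GRCh38.p14. LAMP1 lies at chr13:113297039-113297238 (+ strand), MCOLN1 at chr19:7522524-7522623 (+ strand), GAA at chr17:80101481-80101580 (+ strand) and CTSA at chr20:45891235-45891334 (+ strand). Of the pump, ATP6V0B lies at chr1:43974860-43974959 (+ strand), ATP6V0D1 at chr16:67481158-67481257 (- strand) and ATP6V1G1 at chr9:114587669-114587768 (+ strand).
LAMP1: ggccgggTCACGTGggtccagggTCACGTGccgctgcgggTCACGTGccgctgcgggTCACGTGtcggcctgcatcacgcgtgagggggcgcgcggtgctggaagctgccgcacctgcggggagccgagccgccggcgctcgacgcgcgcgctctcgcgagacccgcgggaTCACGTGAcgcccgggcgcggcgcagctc
MCOLN1: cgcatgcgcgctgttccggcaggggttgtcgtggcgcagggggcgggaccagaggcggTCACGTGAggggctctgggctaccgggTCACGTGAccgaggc
GAA: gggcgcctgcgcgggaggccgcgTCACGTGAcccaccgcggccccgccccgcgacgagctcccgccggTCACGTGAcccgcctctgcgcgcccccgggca
CTSA: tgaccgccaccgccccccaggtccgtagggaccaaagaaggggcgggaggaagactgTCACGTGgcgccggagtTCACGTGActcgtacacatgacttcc
ATP6V0B: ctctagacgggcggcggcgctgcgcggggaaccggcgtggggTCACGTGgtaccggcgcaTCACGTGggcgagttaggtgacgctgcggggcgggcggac
ATP6V0D1: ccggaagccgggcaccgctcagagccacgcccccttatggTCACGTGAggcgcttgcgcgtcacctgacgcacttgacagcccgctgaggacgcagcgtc
ATP6V1G1: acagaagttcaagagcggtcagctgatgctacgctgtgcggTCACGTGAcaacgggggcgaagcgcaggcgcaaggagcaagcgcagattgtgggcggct

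Promoter windows of 300 bases (250 before to 50 after the start) were given for 26 of the 36 members, and the letters searched are nested, each shorter motif lying inside the longer ones. TCACGTG on either strand was in the windows of 9 of the 26 members (34.6%), against 4.49% of 27305 genes with a window. The 8 letters TCACGTGA were in 6 members (1.18% of genes), the full palindrome of the CLEAR element in 3, namely GAA, MCOLN1 and ATP6V1G1 (0.421% of genes), and the core CACGTG in 10 (8.77% of genes). LAMP1 held TCACGTG 6 times, 1 of them across the start and so not within the stretch shown. CTSD and NEU1 held it once each. The 9 members were not alike in the libraries. The 6 of the secretory route (LAMP1, MCOLN1, GAA, CTSA, CTSD, NEU1) had a median log2 ratio of -0.39 (-0.83 to 0.81), and the 3 of the pump (ATP6V0B, ATP6V0D1, ATP6V1G1) -1.58 (-2.41 to -1.44). Over the 17 members with a window but without these letters the median was -0.70, against -0.83 over the 9 with them. A match is a description of letters, not of binding.

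Most messenger RNAs of the proton pump (9 of 13) were lower in the LINC00472 library, and those of lysosomal enzymes and membrane proteins mostly stayed within 2-fold. Of the 36 members, 13 met the size rule on the lower side and 2 on the higher side, where 23.8% and 16.3% of all genes at the minimum did so (26.3% and 11.3% of protein-coding genes). By class, 4 of 23 secretory-route members, 4 of 5 V0 subunits and 5 of 8 V1 subunits were lower. The 2 higher members were NPC1 and TPP1, both of the secretory route. In these bulk libraries, fewer cells of a kind and less RNA per cell cannot be told apart.

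**Figure D1:**
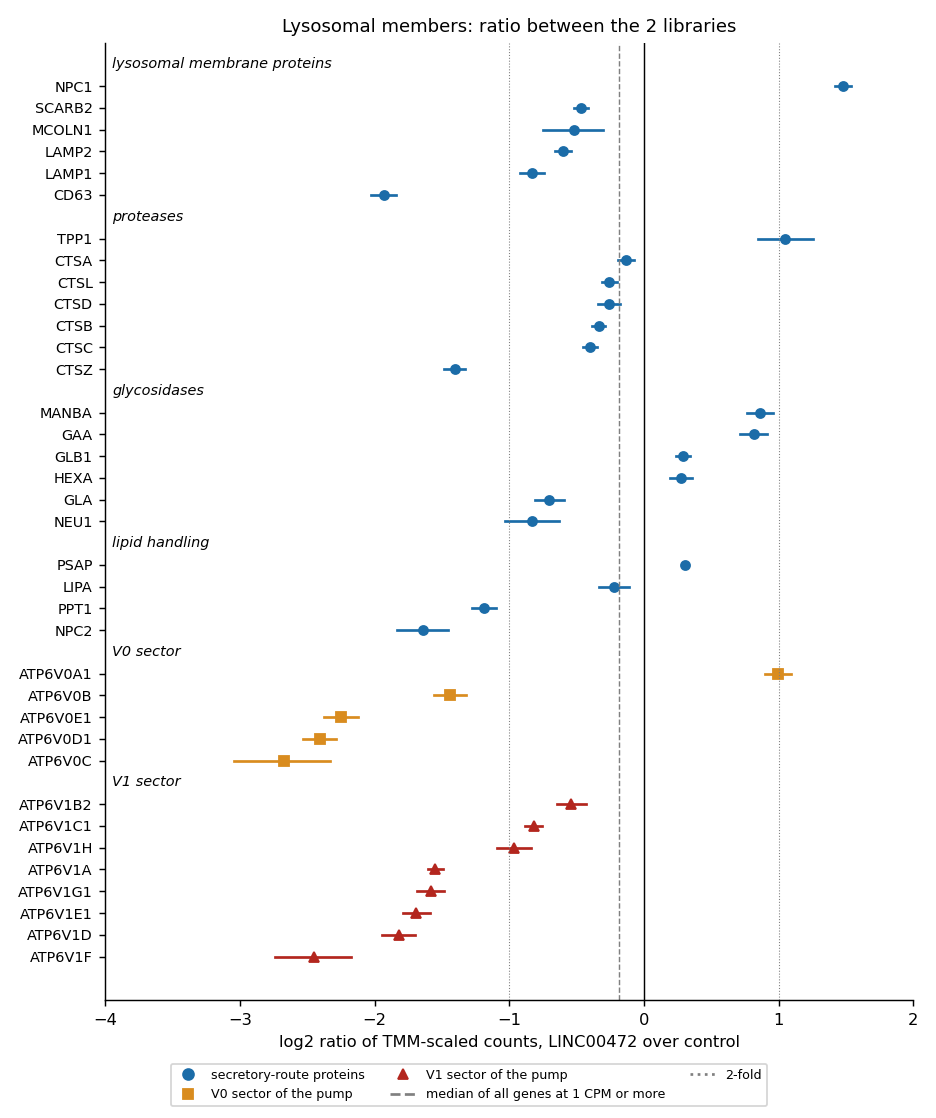
Log2 ratio of TMM-scaled counts, LINC00472 over control, for each of the 36 members by role, with the 95% counting interval as a bar (1 library per group); the dashed line is the median of all genes at the minimum (-0.19) and the dotted lines mark 2-fold. All 8 V1 subunits lie below 0, between -2.45 and -0.54, and the secretory-route members spread from -1.93 to 1.48.

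Lysosomal membrane proteins went in different directions. NPC1, which moves cholesterol out of the lysosome, had 49.4 FPKM with LINC00472 and 15.6 in the control. It was 2.79-fold higher (log2 1.48, interval 1.42 to 1.54), the highest ratio of the members. CD63, a tetraspanin of late endosomes and exosomes, had 43.7 against 146 FPKM and was 3.82-fold lower (log2 -1.93, interval -2.03 to -1.84). It was the second most abundant member per length in the control and the eighth in the LINC00472 library. The glycoproteins that line the membrane, LAMP1 (21.5 against 33.7 FPKM, log2 ratio -0.83) and LAMP2 (26.4 against 36.3 FPKM, -0.60), did not meet the rule. SCARB2, the receptor that carries glucocerebrosidase (37.2 against 45.3 FPKM, -0.47), and the cation channel MCOLN1 (4.41 against 5.59 FPKM, -0.52) did not either. The median over the 6 was -0.56.

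Most cathepsins differed little between the libraries. The log2 ratios of the cysteine proteases CTSB, CTSC and CTSL were -0.34, -0.40 and -0.26, that of the aspartic protease CTSD was -0.26, and that of CTSA, a carboxypeptidase that also stabilises GLB1 and NEU1, was -0.13. CTSA had 44.3 against 42.7 FPKM, so its FPKM and its count ratio lay on opposite sides of equality. CTSL had 94.2 FPKM against 98.8 and CTSB 54.3 against 60.3. Their intervals excluded a ratio of 1 at this depth, CTSL having 3614 against 9194 counts. CTSZ, a carboxypeptidase, stood apart with 42.0 against 97.98 FPKM and was 2.65-fold lower (log2 -1.41, interval -1.49 to -1.33). TPP1, a tripeptidyl peptidase, was at a low level, 4.60 against 1.95 FPKM from 383 and 393 counts. It was 2.07-fold higher (log2 1.05), with an interval from 0.85 to 1.26 that includes ratios under 2-fold. With ratios adjusted by splines on transcript length, introns and GC content, CTSZ fell short of 2-fold (log2 -0.88).

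Glycosidases held no call, and their median log2 ratio (0.28) lay above that of all genes. The highest were MANBA, the beta-mannosidase (21.4 against 10.4 FPKM, log2 ratio 0.86), and GAA, the acid alpha-glucosidase (18.0 against 9.38 FPKM, 0.81). The beta-galactosidase GLB1 (72.5 against 51.7 FPKM, 0.29) and the hexosaminidase subunit HEXA (32.1 against 22.9 FPKM, 0.28) were near equality. The alpha-galactosidase GLA (26.7 against 38.2 FPKM, -0.70) and the sialidase NEU1 (5.45 against 8.54 FPKM, -0.83) were on the other side. With total-count scaling and with upper quartile factors GAA (log2 1.10 and 1.20) and MANBA (1.15 and 1.25) met the rule as higher. So did MANBA with FPKM (1.01) and GAA with adjusted ratios (1.03), where MANBA had 0.43.

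Among proteins of lipid handling, PSAP, the precursor of the saposins that present lipids to hydrolases, was the most abundant member in both libraries, with 316 against 225 FPKM and a log2 ratio of 0.30. The acid lipase LIPA had 14.2 against 14.8 FPKM (-0.22). NPC2, the soluble partner of NPC1, had 12.8 against 35.3 FPKM and was 3.12-fold lower (log2 -1.64, interval -1.83 to -1.46). NPC1 and NPC2, which hand cholesterol from one to the other, thus lay on opposite sides of the rule. PPT1, a thioesterase that removes fatty acids from proteins, had 22.4 against 44.8 FPKM and was 2.28-fold lower (log2 -1.19). It fell short of 2-fold with total counts (-0.90), upper quartile factors (-0.80) and FPKM (-0.99).

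Subunits of the V0 sector had the lowest median of the classes (-2.25), with 1 exception. ATP6V0C, the main subunit of the rotating proteolipid ring, had 72 against 980 counts (2.57 against 14.6 FPKM). It was 6.37-fold lower (log2 -2.67, interval -3.04 to -2.33), the lowest ratio of the members and one with a wide interval. ATP6V0D1, which joins the ring to the V1 stalk and is itself made in the cytosol, had 15.2 against 71.2 FPKM and was 5.31-fold lower (log2 -2.41). The small membrane subunit ATP6V0E1 had 28.0 against 117 FPKM and was 4.75-fold lower (log2 -2.25). ATP6V0B, another ring subunit, had 21.2 against 51.2 FPKM and was 2.71-fold lower (log2 -1.44). With adjusted ratios ATP6V0B was just short of 2-fold (log2 -0.995). ATP6V0A1, the large subunit that forms the proton path beside the ring, went the other way, with 17.8 against 7.84 FPKM and a log2 ratio of 0.996 (interval 0.90 to 1.09), just under the rule. It met the rule as higher with total counts (1.28), upper quartile factors (1.38), FPKM (1.14) and the control thinned to equal depth (1.01).

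All 8 subunits of the V1 sector had a ratio below 0. ATP6V1A, the catalytic subunit that hydrolyses ATP, had 3310 against 20615 counts (30.7 against 78.9 FPKM) and was 2.93-fold lower (log2 -1.55, interval -1.603 to -1.496). Its partner in the hexameric head, ATP6V1B2, had 13.0 against 16.6 FPKM and did not meet the rule (log2 -0.54, interval -0.65 to -0.43). Both form the head, and their ratios differed by more than their counting intervals. Of the central stalk, ATP6V1F had 6.67 against 32.2 FPKM and was 5.46-fold lower (log2 -2.45), and ATP6V1D had 14.5 against 45.1 FPKM and was 3.53-fold lower (log2 -1.82). Of the peripheral stalks, ATP6V1E1 had 27.8 against 78.8 FPKM and was 3.23-fold lower (log2 -1.69), and ATP6V1G1 had 24.9 against 65.5 FPKM and was 2.99-fold lower (log2 -1.58). The subunits that link the stalks to the membrane and regulate the pump, ATP6V1C1 (17.8 against 27.6 FPKM, log2 -0.82) and ATP6V1H (12.2 against 21.3 FPKM, -0.96), fell short of 2-fold. With adjusted ratios both met the rule as lower (-1.17 and -1.19), which made 7 of 8.

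**Figure D2:**
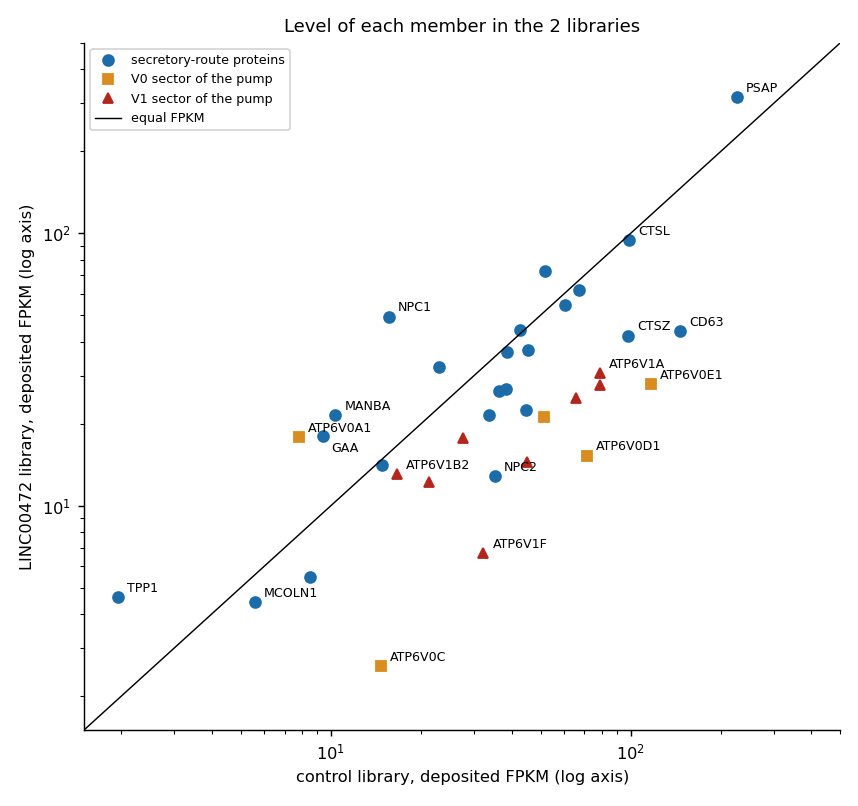
Deposited FPKM of each member in the control library (horizontal, log axis) and in the LINC00472 library (vertical, log axis), with the line of equal FPKM; 1 library per axis. PSAP (316 against 225) and NPC1 (49.4 against 15.6) lie above the line, and the V1 subunits lie below it.

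The secretory-route members and the V1 subunits differed in their medians by 1.23 on the log2 scale. The median ratio was -0.34 over the 23 secretory-route members and -1.57 over the 8 V1 subunits. Their ranges overlapped. Of the secretory-route members, 15 lay above the highest V1 subunit (ATP6V1B2) and 2, CD63 and NPC2, lay below the V1 median. All 8 V1 subunits lay below the secretory-route median. Most genes at the minimum also lay above ATP6V1B2 (-0.54), since their median was -0.19, so this is not particular to the secretory route. The secretory-route median, below which all 8 V1 subunits lay, was close to the median of protein-coding genes (-0.32). A large part of protein-coding genes thus lay below it as well. The exact shares of all genes beyond these limits were not counted. A scaling factor moves the secretory-route and V1 medians alike, so their difference stayed 1.23 with total counts, DESeq2 size factors and upper quartile factors. It was 1.24 with FPKM and 1.14 with means in place of medians. The side of 0 on which the secretory-route median lay did depend on scaling, being 0.051 with upper quartile factors. Relative to the median of all genes under the same scaling it was -0.15 with TMM and -0.16 with upper quartile factors. The V1 median was -1.38 relative to all genes under both. All members are protein-coding, and the protein-coding median with TMM (-0.32) lay nearer the secretory-route median than that of all genes did.

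Within each library, levels per length gave the same contrast without any scaling between libraries. In the control the 8 V1 subunits summed to 366 FPKM and the secretory-route members to 1151 FPKM, a ratio of 0.318. In the LINC00472 library the sums were 148 and 1062 FPKM, a ratio of 0.139. PSAP alone took 29.8% of the secretory-route sum with LINC00472 and 19.5% in the control, and without it the ratios were 0.198 and 0.395. The median V1 level was 1.01 times the median secretory-route level in the control and 0.502 times with LINC00472. Of all gene counts, the secretory-route members took 0.327% (Clopper-Pearson 95% limits 0.324 to 0.329) with LINC00472 and 0.292% (0.290 to 0.293) in the control. Leaving out PSAP, they took 0.225% (0.223 to 0.227) and 0.224% (0.223 to 0.226), so the gap came from PSAP. The V1 subunits took 0.0467% (0.0457 to 0.0476) against 0.0973% (0.0964 to 0.0981), and the V0 subunits 0.0175% (0.0169 to 0.0180) against 0.0356% (0.0351 to 0.0361).

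**Figure D3:**
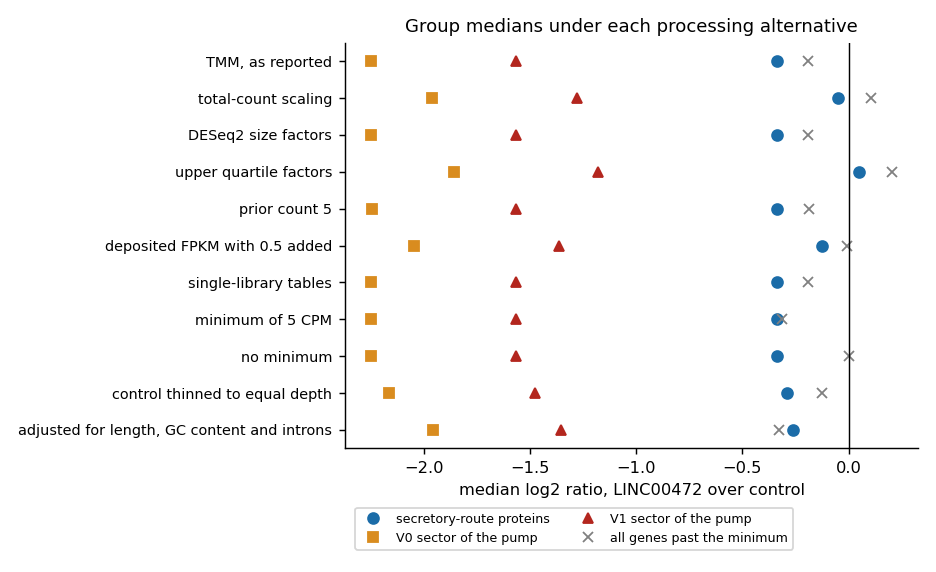
Median log2 ratio, LINC00472 over control, of the 23 secretory-route members, the 5 V0 subunits and the 8 V1 subunits, with the median of all genes past the minimum (crosses), under TMM and 10 alternatives. The order of the 3 medians is the same in every line, and the secretory-route median crosses 0 with upper quartile factors (0.051). Scaling factors, the single-library tables and the changed minimums could not alter that order.

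Transcript length moved with the ratio among protein-coding genes and is therefore given beside this contrast. Split by length into 10 equal parts, protein-coding genes had a median ratio of -1.36 for the shortest transcripts and 0.29 for the longest. The secretory-route members had a median transcript of 2149 nt, the V1 subunits 1926 nt and the V0 subunits 1685 nt. All 8 V1 subunits and 4 of 5 V0 subunits lay below the median of the protein-coding genes in their decile of length. Of the 23 secretory-route members, 14 lay above it and 9 below. The 4 lower ones were among the 9, PPT1 by 0.98 on the log2 scale, CD63 by 0.57, CTSZ by 0.53 and NPC2 by 0.28. CTSL, with 1436 nt and a log2 ratio of -0.26, lay above the median of its decile (-0.87 over transcripts of 1280 to 1752 nt). ATP6V1A, with 4591 nt and a ratio of -1.55, lay below that of its own (-0.07, 4364 to 5372 nt), as did ATP6V1C1 with 5612 nt and -0.82 (0.10, 5375 to 7039 nt). With ratios adjusted for length, GC content and introns the medians were -0.26 for the secretory route, -1.35 for V1 and -1.96 for V0. Over all genes and over protein-coding genes they were -0.33 and -0.39. The difference between the secretory route and V1 was then 1.09.

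**Figure D4:**
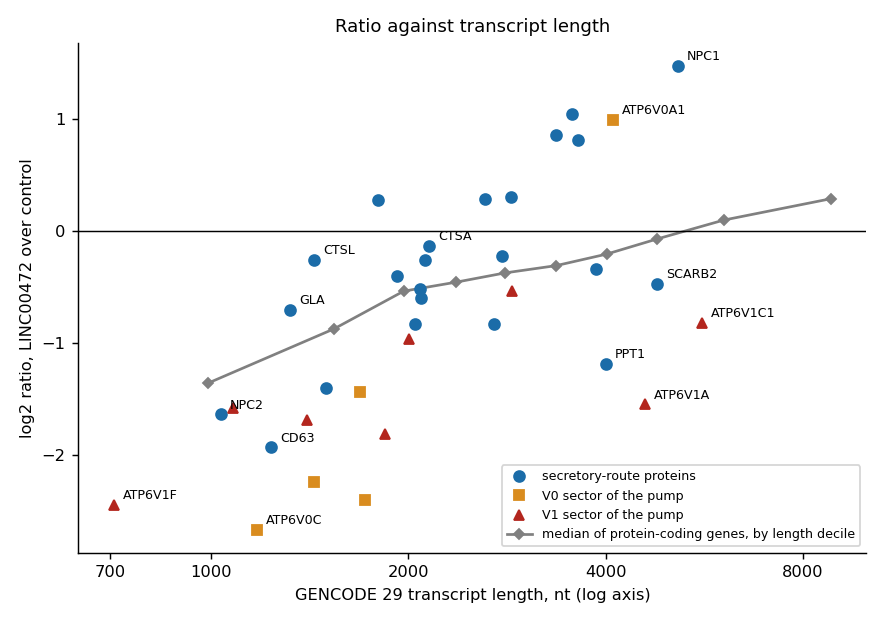
Log2 ratio of each member against the length of its GENCODE 29 transcript (log axis), with the median ratio of protein-coding genes by decile of length (grey line). ATP6V1A (4591 nt, -1.55) and ATP6V1C1 (5612 nt, -0.82) lie below the grey line and CTSL (1436 nt, -0.26) above it.

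The route into the endoplasmic reticulum, which sets the secretory-route members apart from V1, can be read in part from the encoded proteins. The V0 subunits were kept as a class of their own whatever their route. With ATP6V0D1 placed in V1 and the other V0 subunits in the secretory route, the difference of medians was 1.18. A hydrophobic stretch near the amino terminus, as in signal peptides and first membrane spans, was called where the mean Kyte-Doolittle value over 11 residues reached 2.0 within the first 40 residues. It was present in 22 of 23 secretory-route members (all but MCOLN1), in 2 of 5 V0 subunits (ATP6V0B and ATP6V0E1) and in 0 of 8 V1 subunits. Over the 24 members with it the median log2 ratio was -0.37, and over the 12 without it -1.57, which restates the contrast between the classes and adds no independent evidence. Among protein-coding genes at the minimum the medians were -0.18 for 1973 genes with the stretch and -0.35 for 10239 genes without it, and 20.9% and 27.3% of them were lower. The gap over all protein-coding genes was thus 0.17, or 0.14 with a limit of 1.6. Of the V0 subunits, ATP6V0E1 (-2.25) and ATP6V0B (-1.44) carry the stretch and were lower. ATP6V0C (-2.67) and ATP6V0D1 (-2.41) lack it and were lower too, and ATP6V0A1 (0.996) lacks it and was not. Whether the stretch bears on the ratio was not tested.

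**Figure D5:**
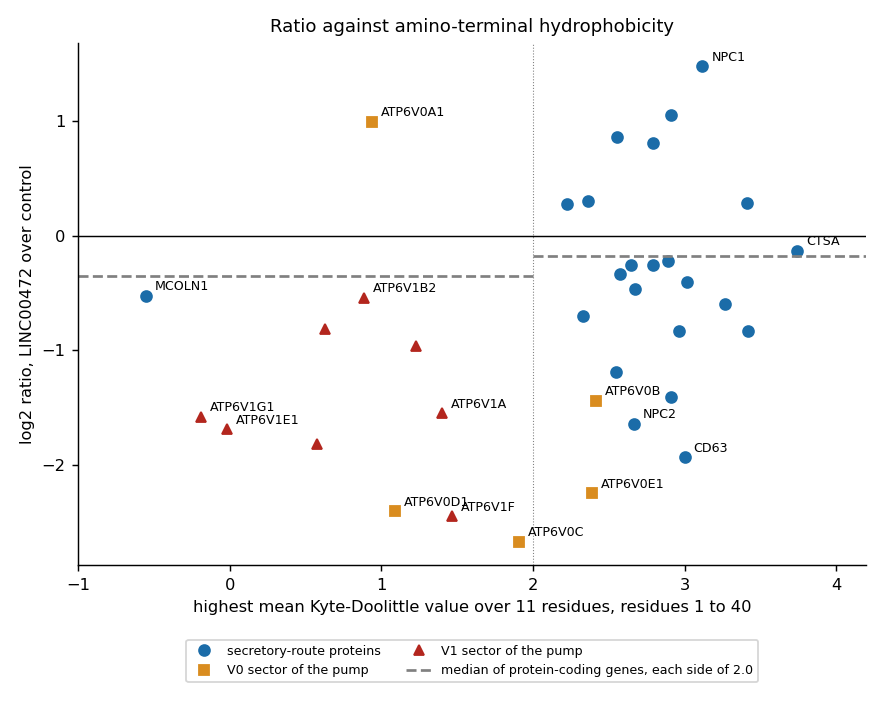
Log2 ratio of each member against the highest mean Kyte-Doolittle value over 11 residues among residues 1 to 40 of the encoded protein, with the medians of protein-coding genes on each side of 2.0 (dashed, -0.35 and -0.18). The V1 subunits all lie left of 2.0, and 22 of the 23 secretory-route members lie right of it.

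Other lysosomal genes, from 6 lists that hold 102 genes, had a share of lower calls near that of all genes. At the minimum were 91 of them, of which 21 were lower (23.1%, against 23.8% of all genes) and 6 higher (6.59%, against 16.3%), with a median log2 ratio of -0.30. Of protein-coding genes, as all genes of these lists are, 26.3% were lower and 11.3% higher. Total counts gave 13 lower and 12 higher, and upper quartile factors 12 and 15, so which side held more calls depended on scaling. The same was true of all genes. Of these, 16.3% were lower and 22.5% higher with total counts, and 14.2% and 25.1% with upper quartile factors. Of 30 further hydrolases and cofactors, 4 were lower (13.3%) and 1 higher (3.33%), both below the shares of all genes (median -0.25). The collagen-degrading protease CTSK had 13.3 against 2.37 FPKM and was higher (log2 2.30), and the sulfatase ARSB (-1.47) and the lipid-binding activator GM2A (-1.40) were lower. Of 16 further membrane proteins, 4 were lower (25.0%) and 2 higher (12.5%), near the shares of all genes (median -0.52). LAPTM4B, a transmembrane protein of late endosomes, had 68.5 against 271 FPKM and a log2 ratio of -2.17, and its relative LAPTM4A -1.33. TMEM192 was lower (-1.29), and the ion channel TPCN1 was higher (1.23).

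Other isoforms and partners of the pump were mixed. Of 12 at the minimum, 3 were lower (25.0%, near the share of all genes) and 1 higher (8.33%), with a median of -0.24. VMA21, which helps to assemble V0 in the endoplasmic reticulum, was lower (15.4 against 43.6 FPKM, log2 -1.68), as were the isoform ATP6V0E2 (-1.62) and ROGDI (-1.46). DMXL2, a large protein that takes part in joining V1 to V0, was higher (49.7 against 18.7 FPKM, log2 1.23). With adjusted ratios DMXL2 (10400 nt, log2 0.45) and ROGDI (-0.84) fell short of 2-fold, and VMA21 (-1.85) and ATP6V0E2 (-1.27) did not. Of the 12 genes for sorting by mannose 6-phosphate, 1 was lower and 1 higher (8.33% each, median -0.16). The large receptor IGF2R was higher (92.0 against 37.1 FPKM, log2 1.13) and the adaptor subunit AP1M1 lower (-1.18). With adjusted ratios IGF2R (14044 nt) fell short of 2-fold (log2 0.44), and AP1M1 did not (-1.03).

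Of 19 regulators and docking factors of the kinase complex mTORC1 on the lysosome, 7 were lower (36.8%, against 23.8% of all genes) and 1 higher (5.26%, against 16.3%), with a median of -0.54. The lower ones included LAMTOR1 (9.70 against 45.4 FPKM, log2 -2.41), LAMTOR2 (-1.56) and LAMTOR4 (-1.55), subunits of the scaffold that holds the Rag GTPases. The GTPase RHEB was lower too (-1.56). LAMTOR2 and LAMTOR4 have short transcripts (655 and 605 nt), and protein-coding genes of the shortest decile had a median of -1.36. With adjusted ratios LAMTOR2 (-0.90) and LAMTOR4 (-0.87) fell short of 2-fold, as did some lower ones not named. LAMTOR1 (-1.76) and RHEB (-1.59) did not. The transcription factors of the lysosomal element did not meet the rule. TFEB had 33 against 64 counts (log2 0.13), TFE3 3.99 against 4.13 FPKM (-0.23) and MITF 8.95 against 6.37 FPKM (-0.13). For MITF the deposited FPKM were higher with LINC00472 while the scaled counts (703 against 1632) were not, so its direction depended on the measure. Both cathepsin inhibitors at the minimum were lower, the cytosolic CSTB (5.92 against 26.3 FPKM, log2 -2.34) and the secreted CST3 (16.0 against 72.6 FPKM, -2.32).

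Exons of 18 members overlap another gene by at least 100 bases in GENCODE 29. Pairs on opposite strands include PPT1 with CAP1, CTSA with NEURL2 and PLTP, NPC1 with RMC1 and ATP6V1D with EIF2S1. Pairs on the same strand include ATP6V0C with AC093525.2 (862 bases), CTSD with AC068580.4 (1304), TPP1 with AC091564.7 (756), MANBA with LRRC37A15P (1138) and HEXA with AC009690.1 (617). Whether counting used strand is not given in the sources used here, and strand could not separate pairs on the same strand. Reads of all such pairs therefore cannot be told apart. The 3 deposited rows for pseudogenes named after members (CTSLP2, CTSLP8 and ATP6V0CP3) had 0 counts in both libraries, and other near-identical copies were not examined.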

How the data were processed

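RNA from 2 cultures was sequenced, grouped here by sample title. The authors deposited whole-number read counts per gene, not normalized, and FPKM, once for both libraries together and once for each, per the file headers. Per the submitters' processing notes, HISAT2 2.1.0, StringTie 1.3.4b, Trimmomatic, bcl2fastq 2.20.0 and the build hg19 were used, in no stated role. How reads were counted, and on which annotation, is not given in the sources used here. FPKM corrects for length, so levels of different genes were compared in FPKM and libraries in counts.

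Counts were scaled with TMM in edgeR 4.0.16 (R 4.3.3), with factors of 1.11 (LINC00472) and 0.905 (control). Log2 ratios used a prior count of 0.5. Intervals were Clopper-Pearson limits conditional on the sum of both counts, and the procedure was tested on simulated data. Alternatives were FPKM with 0.5 added, upper quartile factors, total counts, size factors of DESeq2 1.42.0, the tables of single libraries, a prior count of 5, minimums of 5 CPM and of none, the control thinned to equal depth, and ratios adjusted by splines (scikit-learn 1.9.0, 13407 genes, R squared 0.117). With FPKM, calls used size alone. Transcripts were those with the longest protein among RefSeq matches in GENCODE 29 (95.7% of genes at the minimum). Proteins were translated from these, not taken from RefSeq. Promoters of 26 members came from RefSeq; ATP6V0E1, ATP6V1A, ATP6V1B2, ATP6V1C1, ATP6V1H, CTSB, HEXA, LAMP2, MANBA and PSAP had no entry. All members were named, and from each other list up to 4 genes meeting the size rule at 5 CPM with the largest absolute ratios, plus TFEB, TFE3 and MITF. Members and lists were chosen with earlier results of these data known. Marker genes, overlap partners and pseudogenes were named outside that rule.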

Additional observations from a re-analysis of the deposited data

How the results depend on the processing

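With 1 library per group, culture and library variation could not be measured, and the limits are those of counting and scaling. No paired analysis was possible because each group held 1 library. The count of lower members stayed between 12 and 13 in the 10 alternatives, and the difference between secretory-route and V1 medians between 1.09 (adjusted ratios) and 1.24 (FPKM). The tables of single libraries held the same counts, and every member passed the changed minimums, so these alternatives could not move any member. With adjusted ratios CTSZ and ATP6V0B left the lower members, and ATP6V1C1 and ATP6V1H joined them. Total counts, upper quartile factors and FPKM gave 5, 5 and 4 higher members in place of 2. In that order the median log2 ratios were -0.049, 0.051 and -0.13 for the secretory route, -1.96, -1.86 and -2.04 for V0, and -1.28, -1.18 and -1.36 for V1, with lower other lysosomal genes at 13, 12 and 13 in place of 21. Under these settings, in the same order, 22.5%, 25.1% and 15.5% of all genes at the minimum were higher (16.3% with TMM). The lower shares were 16.3%, 14.2% and 17.3% (23.8% with TMM). Adjusted ratios gave -1.96 for V0 and -1.35 for V1. Higher other lysosomal genes numbered 12 with total counts, 15 with upper quartile factors and 10 without a minimum, in place of 6. Without a minimum, 13.2% of all genes were higher. A scaling shifts every ratio alike, which by construction moves these medians and counts; for FPKM and adjusted ratios the cause was not tested. Among members depth limits ATP6V0C, ATP6V1F and MCOLN1 most, with 72 to 218 counts in the LINC00472 library.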

Other observations

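Among the 5 V0 members, shares of their summed messenger RNA level per length differed between the libraries. The sum leaves out other V0 isoforms, TCIRG1 among them, so it does not give the make-up of the pump. ATP6V0A1 took 21.0% of the summed V0 level with LINC00472 and 2.995% in the control, while ATP6V0E1 took 33.0% against 44.6%, ATP6V0D1 18.0% against 27.2% and ATP6V0B 25.0% against 19.6%. The other isoforms of the same large subunit had 53.5 against 26.7 FPKM (TCIRG1), 4.51 against 5.48 (ATP6V0A2) and 2.30 against 3.09 (ATP6V0A4), with log2 ratios of count levels of 0.79, -0.46 and -0.61, none meeting the size rule. In V1, ATP6V1A took 20.8% against 21.6%, ATP6V1E1 18.8% against 21.5% and ATP6V1G1 16.9% against 17.9%. ATP6V1B2 (8.82% against 4.55%), ATP6V1C1 (12.1% against 7.54%) and ATP6V1H (8.30% against 5.81%) took larger shares with LINC00472, and ATP6V1F (4.53% against 8.81%) and ATP6V1D (9.83% against 12.3%) smaller ones. TCIRG1, ATP6V0A2 and ATP6V0A4 were picked after their values were seen.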
